A study of Rattus norvegicus with 24 samples.

Results

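Voltage-gated sodium and calcium channel genes were followed in the hypothalamus of male Wistar rats through 52 array probe sets, of 31099 in the series, for 36 of its 14217 genes with a probe set of their own symbol. A probe set was included where its only gene symbol in the platform table was a sodium channel symbol (Scn, a number, and a or b) or began with Cacn. Of the 36 genes, 12 are named for sodium channels and 24 for calcium channels. In all, 29 probe sets (19 genes) encoded pore subunits and 23 probe sets (17 genes) encoded auxiliary subunits. No filter on low signals was applied, so all 52 were tested.

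The study measured RNA of the hypothalamic block of 18 rats, 1 array per rat, in 3 groups of 6. In the linalool plus stress group, rats were held in restraint for 2 h in a 40 L box in which 20 µL of (R,S)-linalool, a scented monoterpene alcohol of lavender oil, had been evaporated. In the stress group, rats were held in restraint for 2 h without the odour. In the control group, rats had neither restraint nor odour. All rats were wild-type males of the outbred strain Wistar, labelled 7 weeks old, with no transgene. Values are the deposited log2 signals. The authors normalized 2 sets separately, stress with control arrays and the same 6 stress arrays again with the linalool plus stress arrays, so each comparison was made inside its own set of 12 arrays and no linalool array was set against a control array.

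Voltage-gated sodium channels open when a neuron's membrane depolarises and carry the inward current of the action potential. Each is a large pore-forming alpha subunit with small beta subunits that bind it and act in gating, adhesion and delivery to the membrane. Voltage-gated calcium channels turn depolarisation into calcium entry. Their Cav1 pores (L-type) couple activity to secretion and gene transcription, their Cav2 pores (P/Q-, N- and R-type) trigger transmitter release, and their Cav3 pores (T-type) open near rest and support burst firing. Calcium beta and alpha2delta subunits bring the pore to the membrane and tune it. Most brain gamma subunits are better known as partners of AMPA-type glutamate receptors.

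The deposited log2 scale was not the same for all probe sets. A probe set is called compressed here where its residual standard deviation (SD) within groups was under 0.01 on the log2 scale. This held for 83.5% of all probe sets in the set with controls and 83.7% in the set with linalool arrays, and for 32 of the 52 channel probe sets in each. A compressed probe set's log2 difference is therefore tiny, so the text gives it in multiples of the residual SD, where the standard error (SE) is 0.577. Each probe set was tested with limma over all 31042 probe sets that are not array controls, and passed at an adjusted p (Benjamini-Hochberg) under 0.05. Fewer channel-expressing cells in a block and less channel RNA per cell cannot be told apart in such bulk samples.

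The same 6 stress arrays, normalized in both sets, show how far the scale depends on the set. Their SD differed over 10-fold between the sets for 8 of the 52 channel probe sets, against 13.4% of all probe sets. Scn8a had an SD of 0.137 over the stress arrays in the set with linalool arrays and 0.000189 in the set with controls. Cacng7 likewise had 0.124 and 0.000161. For Cacna2d1 the order was the other way, 5.67e-05 in the set with linalool arrays and 0.0505 in the set with controls. In all, 28 channel probe sets were compressed in both sets, 16 in neither, 4 in the set with controls alone and 4 in the set with linalool arrays alone.

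**Figure D1:**
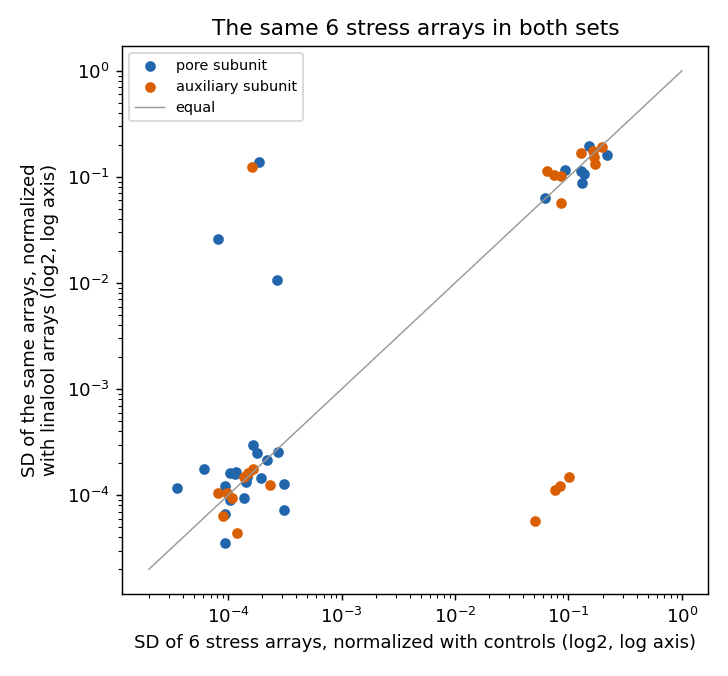
SD of the log2 signal over the 6 stress arrays for the 52 channel probe sets, in the set normalized with controls (horizontal log axis) and in the set normalized with linalool arrays (vertical log axis). Points are pore (blue) or auxiliary (orange) probe sets, the line marks equal SDs, and the 8 points far from it are the probe sets whose SD differed over 10-fold.

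With linalool under restraint, several channel genes had lower signals than with restraint alone, while others known for neuronal firing did not pass. Scn2b, which encodes a sodium channel beta subunit, had the smallest p of the 52. Its probe set 1369311_at fell by 0.66 on the log2 scale, to 0.633 times the stress signal on the deposited scale. Its other probe set, compressed, did not pass. Cacng7, a gamma subunit, fell by 0.49. The sodium pores Scn8a and Scn2a, found at the axon initial segment, fell by 0.32 and 0.18, and one L-type probe set of Cacna1c fell by 0.25. One probe set of Cacna1a, the P/Q-type pore gene, was higher (0.04) while another was lower (-0.11). The sodium pores Scn1a, Scn3a and Scn9a, the beta subunit gene Scn4b and all Cav3 probe sets did not pass.

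Of the 52 channel probe sets, 17 passed (32.7%), against 25% of all probe sets. Of the 17, 16 were lower with linalool (30.8% of the channel probe sets, against 10.8% of all probe sets) and 1 was higher (against 14.2% of all). These 17 belonged to 13 of the 36 genes. The 6 linalool plus stress arrays and the 6 stress arrays did not overlap for 9 lower and 1 higher channel probe set, where this held for 4.36% (lower) and 7.56% (higher) of all probe sets. The median difference was -0.637 residual SDs over the channel probe sets and -0.0136 over all probe sets. Of the 16 lower calls 8 were compressed. Under quantile normalization 6 of these 8 turned upward and the other 2 no longer passed. The 20 channel probe sets that were not compressed are therefore given separately. Of those 20, 9 passed (45%, near the 49.7% of all probe sets that were not compressed), 8 of them lower (40%, against 21.3%). Of the 32 compressed ones 8 passed (25%, against 20.2% of all compressed probe sets). Which probe sets are compressed was itself set by the deposited values, so these shares are a description.

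Calls came from both pore and auxiliary subunits. Among pore probe sets 11 of 29 passed (37.9%), 10 lower and 1 higher, with a median of -0.659 residual SDs. Among auxiliary probe sets 6 of 23 passed (26.1%), all lower, with a median of -0.611. Over all probe sets 25% passed. Of the probe sets that were not compressed, 5 of 10 pore (50%) and 4 of 10 auxiliary ones (40%) passed, near the 49.7% of all such probe sets. In each role 40% were lower, against 21.3%. A difference between the pore and auxiliary shares was not tested. By class, compressed calls included, the calls were 3 of 9 sodium pore, 3 of 7 Cav1, 5 of 8 Cav2 and 0 of 5 Cav3 probe sets. The only Cav2 calls that were not compressed were the Cacna1a probe sets of opposite direction. Auxiliary calls were 1 of 5 sodium beta, 0 of 7 calcium beta, 1 of 2 alpha2delta and 4 of 9 gamma probe sets.

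**Figure D2:**
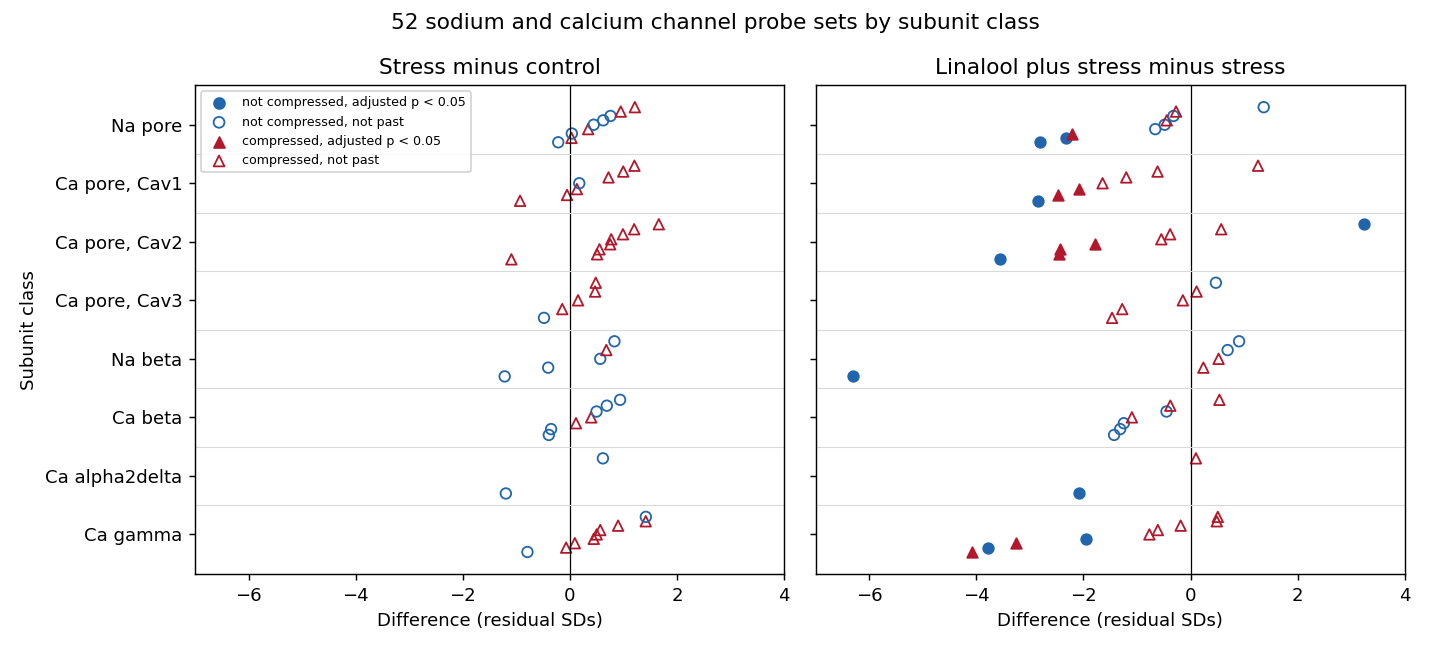
Difference in residual SDs (horizontal axis) for each of the 52 channel probe sets by subunit class, stress minus control on the left and linalool plus stress minus stress on the right. Filled symbols passed an adjusted p of 0.05, circles were not compressed and triangles were compressed. No symbol is filled on the left, and on the right 16 of the 17 filled symbols lie below 0, down to -6.30 for Scn2b.

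The promoters of the 7 genes that had a lower call that was not compressed and a listed promoter are shown because those calls carry the comparison. They are 300 bases of RefSeq sequence around the annotated gene start in assembly GRCr8 (250 before and 50 after), written 5′ to 3′ on the gene's strand. Capitals mark the GC box GGGCGG or its reverse complement CCGCCC, a site known to bind Sp1-type factors.
Scn2b (chr8:54322133-54322432, plus strand): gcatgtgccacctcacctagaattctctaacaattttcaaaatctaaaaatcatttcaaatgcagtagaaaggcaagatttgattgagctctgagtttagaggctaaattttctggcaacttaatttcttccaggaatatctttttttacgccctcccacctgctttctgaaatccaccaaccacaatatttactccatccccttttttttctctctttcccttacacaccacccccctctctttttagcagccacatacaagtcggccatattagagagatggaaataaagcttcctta
Scn8a (chr7:133860977-133861276, plus strand): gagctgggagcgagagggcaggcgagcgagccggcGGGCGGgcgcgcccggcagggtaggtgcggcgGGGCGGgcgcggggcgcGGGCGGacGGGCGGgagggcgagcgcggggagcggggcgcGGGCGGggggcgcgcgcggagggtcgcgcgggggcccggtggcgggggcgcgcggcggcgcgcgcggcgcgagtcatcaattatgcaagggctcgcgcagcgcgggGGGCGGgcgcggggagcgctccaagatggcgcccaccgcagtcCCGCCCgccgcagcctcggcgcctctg
Scn2a (chr3:70710706-70711005, plus strand): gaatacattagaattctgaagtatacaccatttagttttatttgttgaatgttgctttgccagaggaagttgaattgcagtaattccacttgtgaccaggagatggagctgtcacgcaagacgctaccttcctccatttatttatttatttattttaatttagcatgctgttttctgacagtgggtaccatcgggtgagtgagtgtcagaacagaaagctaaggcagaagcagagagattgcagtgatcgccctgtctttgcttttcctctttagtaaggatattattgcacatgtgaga
Cacna1c (chr4:154051699-154051998, minus strand): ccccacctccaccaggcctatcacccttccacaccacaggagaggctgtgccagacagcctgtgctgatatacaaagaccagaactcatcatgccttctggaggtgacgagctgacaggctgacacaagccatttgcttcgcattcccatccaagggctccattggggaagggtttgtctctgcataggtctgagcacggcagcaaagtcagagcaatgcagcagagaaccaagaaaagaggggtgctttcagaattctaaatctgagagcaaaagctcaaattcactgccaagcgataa
Cacna1a (chr19:40650419-40650718, minus strand): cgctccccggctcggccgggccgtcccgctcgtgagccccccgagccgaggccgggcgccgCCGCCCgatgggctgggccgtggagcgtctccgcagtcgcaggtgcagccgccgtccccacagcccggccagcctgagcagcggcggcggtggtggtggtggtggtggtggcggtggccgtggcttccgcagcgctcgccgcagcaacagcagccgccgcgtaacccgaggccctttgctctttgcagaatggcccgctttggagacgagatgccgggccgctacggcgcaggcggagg
Cacng2 (chr7:111577708-111578007, minus strand): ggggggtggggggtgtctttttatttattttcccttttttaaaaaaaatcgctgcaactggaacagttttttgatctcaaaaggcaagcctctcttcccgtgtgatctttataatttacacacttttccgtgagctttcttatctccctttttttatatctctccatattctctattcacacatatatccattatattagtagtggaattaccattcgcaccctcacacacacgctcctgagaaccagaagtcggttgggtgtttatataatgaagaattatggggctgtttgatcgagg
Cacna2d3 (chr16:4918850-4919149, minus strand): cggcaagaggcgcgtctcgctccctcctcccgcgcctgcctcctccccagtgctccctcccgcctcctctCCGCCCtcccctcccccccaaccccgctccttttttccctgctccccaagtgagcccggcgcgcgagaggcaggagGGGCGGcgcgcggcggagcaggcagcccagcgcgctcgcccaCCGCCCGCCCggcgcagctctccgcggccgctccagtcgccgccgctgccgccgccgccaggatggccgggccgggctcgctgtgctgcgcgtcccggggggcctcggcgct
Scn8a held 7 GC boxes in a window of 84.7% G and C, Cacna2d3 4 at 79.3% and Cacna1a 1 at 76.0%. The windows of Scn2b, Scn2a, Cacna1c and Cacng2 held none at 39.0%, 39.3%, 51.7% and 39.0%. A promoter was listed for 26 of the 36 channel genes, and 13 of the 26 held a GC box, against 33.1% of 33469 promoters of this length. Among those 26, TATAAA was found in 2 (14.2% of all promoters), the cAMP response element TGACGTCA in 0 (1.83%) and the glucocorticoid response element in 0 (0.439%). The left part of the RE1 element, by which the repressor REST is known to keep Scn2a silent outside neurons, is TTCAGCACC. It was in 1 of the 26 (Cacng3, which did not pass) and in 0.356% of all promoters. Both strands were searched, and a match is a match of letters only.

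Scn2b encodes a beta subunit that is linked to the sodium pore by a disulphide bond and helps place channels at the axon initial segment and nodes of Ranvier. Its probe set 1369311_at read 7.65 (lowest), 7.79 (median) and 7.95 (highest) over the 6 linalool plus stress arrays, against 8.35, 8.44 and 8.66 over the 6 stress arrays. All linalool arrays lay below all stress arrays. The means were 7.80 ± 0.105 with linalool plus stress and 8.46 ± 0.104 with stress (SD, n = 6 each), a difference of -0.66 (SE 0.0604, limma adjusted p = 0.000115). The other probe set, 1396405_at, was compressed, averaged 10.47 in both groups and differed by 0.524 residual SDs without passing (adjusted p = 0.543). Its neighbour on chromosome 8, Scn4b, whose product is known from resurgent sodium current, differed by 0.20 without passing (95% interval -0.08 to 0.49, adjusted p = 0.273). Of the Scn3b probe sets, 1370850_at averaged 10.52 with linalool plus stress and 10.40 with stress (difference 0.12, adjusted p = 0.407). The other, 1383435_at, averaged 10.70 in both groups and differed by 0.24 residual SDs (adjusted p = 0.798).

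The sodium pores of adult brain split by gene. Scn8a, the pore that dominates at nodes and the distal initial segment, read 7.34, 7.42 and 7.56 (lowest, median, highest) with linalool plus stress, against 7.53, 7.73 and 7.93 with stress. Of the linalool arrays 5 of 6 lay below every stress array, so the groups overlapped through a single array. Its difference was -0.32 (SE 0.0653, limma adjusted p = 0.00553). Scn2a, the pore of excitatory neurons' proximal initial segment and of unmyelinated axons, read 10.22, 10.35 and 10.48 with linalool plus stress, against 10.46, 10.54 and 10.63 with stress. Again 5 of 6 linalool arrays lay below every stress array, and the difference was -0.18 (SE 0.0451, limma adjusted p = 0.0136).

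The remaining sodium pores did not pass, apart from Scn11a, which is given with the compressed calls. Scn1a, the main pore of fast-spiking inhibitory neurons, averaged 10.91 with linalool plus stress and 10.96 with stress, a difference of -0.04 (95% interval -0.16 to 0.07, adjusted p = 0.575). Scn3a, expressed most in the developing brain and next to Scn2a on chromosome 3, averaged 9.56 and 9.67 in linalool plus stress and stress arrays, a difference of -0.11 (95% interval -0.34 to 0.11, adjusted p = 0.432). Scn9a, known from pain neurons and also expressed in hypothalamic neurons that release vasopressin and oxytocin, averaged 8.60 with linalool plus stress and 8.44 with stress. It differed by 0.15 without passing (95% interval 0.01 to 0.30, adjusted p = 0.104). Of its linalool arrays 5 of 6 lay above every stress array. Scn7a, the sodium-sensing channel of glia, differed by -0.06 (adjusted p = 0.724). The muscle pore Scn4a and the sensory neuron pore Scn10a were at -0.444 and -0.27 residual SDs (adjusted p = 0.611 and 0.768).

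Among the L-type genes Cacna1c, the main brain and heart L-type pore, gave lower calls from both of its probe sets. Probe set 1370452_at read 8.28, 8.38 and 8.41 with linalool plus stress, against 8.42, 8.65 and 8.74 with stress. The groups did not overlap, by a narrow gap between the highest linalool and the lowest stress array, and the difference was -0.25 (SE 0.0514, limma adjusted p = 0.00523). The compressed probe set 1370451_a_at averaged 7.16 in both groups and differed by -2.09 residual SDs (adjusted p = 0.0232), a direction that turned under median centring (1.44). Cacna1d, the L-type pore that opens at lower voltage and supports pacemaking, had 3 compressed probe sets and no call. They averaged 6.89, 8.52 and 7.82 in both groups and differed by -1.64, 1.26 and -1.20 residual SDs for 1370637_at, 1369086_a_at and 1370640_a_at (adjusted p = 0.0597, 0.145 and 0.149). Cacna1f, known from the retina, differed by -0.616 residual SDs (adjusted p = 0.468).

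Cacna1a, the P/Q-type pore of presynaptic release sites, had 5 probe sets that disagreed. Probe set 1386939_a_at read 8.14, 8.15 and 8.23 with linalool plus stress, against 8.25, 8.27 and 8.32 with stress, a difference of -0.11 (SE 0.0182, limma adjusted p = 0.00166). Probe set 1395062_at read 7.71, 7.73 and 7.74 with linalool plus stress, against 7.68, 7.69 and 7.71 with stress, a difference of 0.04 (SE 0.00631, limma adjusted p = 0.00276). The groups did not overlap in either. The residual SD of 1395062_at was 0.0109, just above the limit of 0.01, and both probe sets were compressed in the set with controls. The compressed 1367822_at averaged 7.34 in both groups. Its linalool plus stress arrays lay -3.05, -2.73 and -1.25 residual SDs from the stress mean (lowest, median, highest), against -1.37, 0.043 and 1.59 for stress arrays, which overlap. It was lower by the test (-2.44 residual SDs, adjusted p = 0.0126), turning to 0.911 and 1.46 under quantile normalization and median centring. The compressed 1367821_a_at and 1398459_at averaged 8.52 and 8.19 in both groups and differed by 0.573 and -0.382 residual SDs without passing (adjusted p = 0.503 and 0.665). No single direction can be given for Cacna1a.

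The other Cav2 and the Cav3 pores were compressed in all but 1 probe set. Cacna1b, the N-type pore of transmitter release, averaged 7.90 in both groups by 1371175_a_at, which differed by -1.78 residual SDs (adjusted p = 0.0448). That call held without stress array 2 or 3 and was lost in the other 10 of the 12 fits that left out 1 array (adjusted p = 0.0521 to 0.0893). The other Cacna1b probe set, 1370444_at, averaged 9.88 in both groups and differed by -0.546 residual SDs (adjusted p = 0.527). Cacna1e, the R-type pore, averaged 7.40 in both groups, and its linalool plus stress arrays lay -3.86, -2.27 and -1.43 residual SDs from the stress mean, against -1.11, -0.0528 and 1.32 for stress arrays. It differed by -2.46 residual SDs (adjusted p = 0.0116), with no overlap between groups. Both Cacna1b 1371175_a_at and Cacna1e turned upward under quantile normalization and median centring. Cacna1g, the T-type pore of thalamic relay neurons, averaged 8.83 in both groups and differed by -1.47 residual SDs (adjusted p = 0.0862). Cacna1h averaged 8.97 with linalool plus stress and 8.92 with stress by 1368398_at (difference 0.05, adjusted p = 0.583). By 1379197_at it averaged 7.49 in both groups (-0.144 residual SDs, adjusted p = 0.88). Cacna1i averaged 7.87 in both groups by 1369211_at and 7.43 by 1370641_s_at, at 0.113 and -1.28 residual SDs from the stress mean (adjusted p = 0.907 and 0.129). The suffix of the last probe set marks probes that may bind related transcripts.

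Gamma subunits gave 4 of the 6 auxiliary calls. Cacng7, which is known to regulate AMPA receptors, read 7.97, 8.20 and 8.32 with linalool plus stress, against 8.53, 8.70 and 8.82 with stress. All linalool arrays lay below all stress arrays, and the difference was -0.49 (SE 0.0742, limma adjusted p = 0.00123). Its chromosome 1 neighbours Cacng8 and Cacng6 differed by 0.509 and -0.184 residual SDs without passing (adjusted p = 0.555 and 0.845). Cacng2, which encodes stargazin, the gamma subunit that carries AMPA receptors to synapses, gave lower calls from both probe sets. Probe set 1368759_at read 9.76, 9.97 and 10.23 with linalool plus stress, against 10.14, 10.24 and 10.44 with stress. The groups overlapped, and the difference was -0.26 (SE 0.0771, limma adjusted p = 0.0287). That call was lost in 6 of the 12 fits that left out 1 array, with adjusted p-values of 0.0525 to 0.0562 in those 6. They left out linalool arrays 1, 2 or 4 or stress arrays 3, 4 or 6. It was also lost in the exact rank-sum test (adjusted p = 0.0615). The compressed 1375735_at averaged 9.42 in both groups. Its linalool plus stress arrays lay -4.53, -3.18 and -1.44 residual SDs from the stress mean, against -1.05, -0.0215 and 1.40 for stress arrays, with no overlap. It differed by -3.26 residual SDs (adjusted p = 0.00303), and turned to 1.44 under median centring. Cacng4, a related AMPA receptor subunit, was compressed at 8.05 in both groups. Its linalool plus stress arrays lay -6.35, -3.72 and -2.65 residual SDs from the stress mean, against -0.601, -0.114 and 0.568 for stress arrays, so that the groups were apart. It differed by -4.08 residual SDs (adjusted p = 0.000915), turning to 1.19 and 1.41 under quantile normalization and median centring. Cacng1 of skeletal muscle, Cacng3 and Cacng5 differed by -0.611, 0.49 and -0.769 residual SDs without passing.

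Among the other auxiliary calcium subunits, Cacna2d3, an alpha2delta subunit that increases calcium channels at presynaptic terminals, read 9.99, 10.12 and 10.16 with linalool plus stress, against 10.12, 10.23 and 10.28 with stress. Of the linalool arrays 3 lay below every stress array, so the groups overlapped, and the difference was -0.12 (SE 0.0329, limma adjusted p = 0.0225). The exact rank-sum test did not call it (adjusted p = 0.0615). Cacna2d1, the target of gabapentin-type drugs, averaged 10.29 in both groups, compressed, and differed by 0.101 residual SDs (adjusted p = 0.918). None of the 7 calcium beta subunit probe sets passed. Cacnb3 differed by -0.27 (95% interval -0.54 to -0.01, adjusted p = 0.116), and Cacnb2 by -0.19 and -0.10 in probe sets 1370178_at and 1374717_at (adjusted p = 0.0914 and 0.135). Cacnb4, the beta subunit mutated in the lethargic mouse, averaged 7.48 with linalool plus stress and 7.54 with stress, a difference of -0.06 (95% interval -0.23 to 0.11, adjusted p = 0.605).

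**Figure D3:**
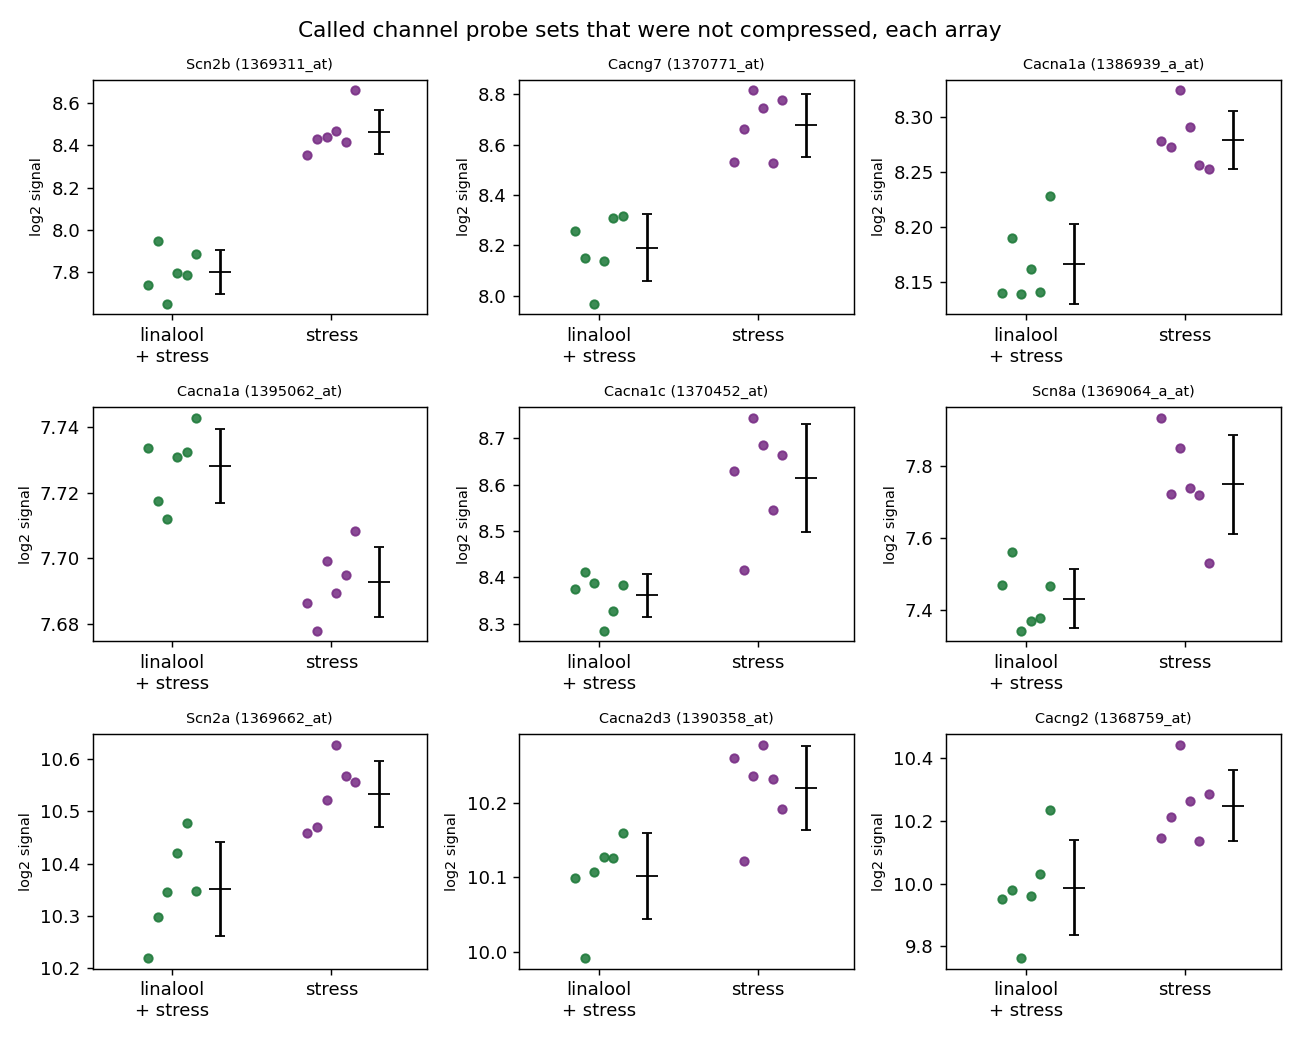
log2 signal of every array (points) for the 9 channel probe sets that passed with linalool and were not compressed, linalool plus stress on the left of each panel and stress on the right. The black bars give the mean and SD of 6 arrays. Scn2b, Cacng7, Cacna1c and both Cacna1a probe sets show no overlap between groups, and Cacna1a 1395062_at is the single one that was higher.

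Channel genes best known from tissues other than brain gave 2 compressed calls. For Cacna1s, the L-type pore of skeletal muscle, the difference was -2.47 residual SDs (adjusted p = 0.0114). For Scn11a, a sodium pore of sensory neurons, it was -2.22 residual SDs (adjusted p = 0.0179). They averaged 7.29 and 7.53 in both groups. Over the linalool plus stress arrays Cacna1s lay -3.65, -2.52 and -0.305 residual SDs from the stress mean (lowest, median, highest), against -0.737, -0.0359 and 0.88 for stress arrays, and the groups overlapped. Their probe sets turned to 0.134 and 1.84 under quantile normalization and to 1.44 for both under median centring. Of skeletal and cardiac muscle markers, measured for 5 of 7 genes, none passed, and their summed linear signal lay between 1178 and 1243 in linalool plus stress arrays and between 1152 and 1227 in stress arrays.

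The 2 kinds of call were also fitted after the columns were rescaled. All 9 calls that were not compressed kept direction and passed under quantile normalization and median centring of the 12 columns, with Scn2b at -0.65 in both. All 8 compressed calls turned upward under median centring, at 1.41 to 1.46 residual SDs, and 6 of them under quantile normalization, where the other 2 (Cacng2 1375735_at and Cacna1c 1370451_a_at) no longer passed. Median centring called 93.4% of all probe sets. Centring moves all probe sets of an array by the same amount. Array medians ran from 8.13 to 8.141 with linalool plus stress and from 8.133 to 8.151 with stress. The compressed channel differences are far smaller (-0.00042 for Cacng4), so these medians fixed their turn in advance. The calls that were not compressed were too large to turn under centring. Centring therefore says nothing about the 8 compressed calls, and their direction is not settled here.

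**Figure D4:**
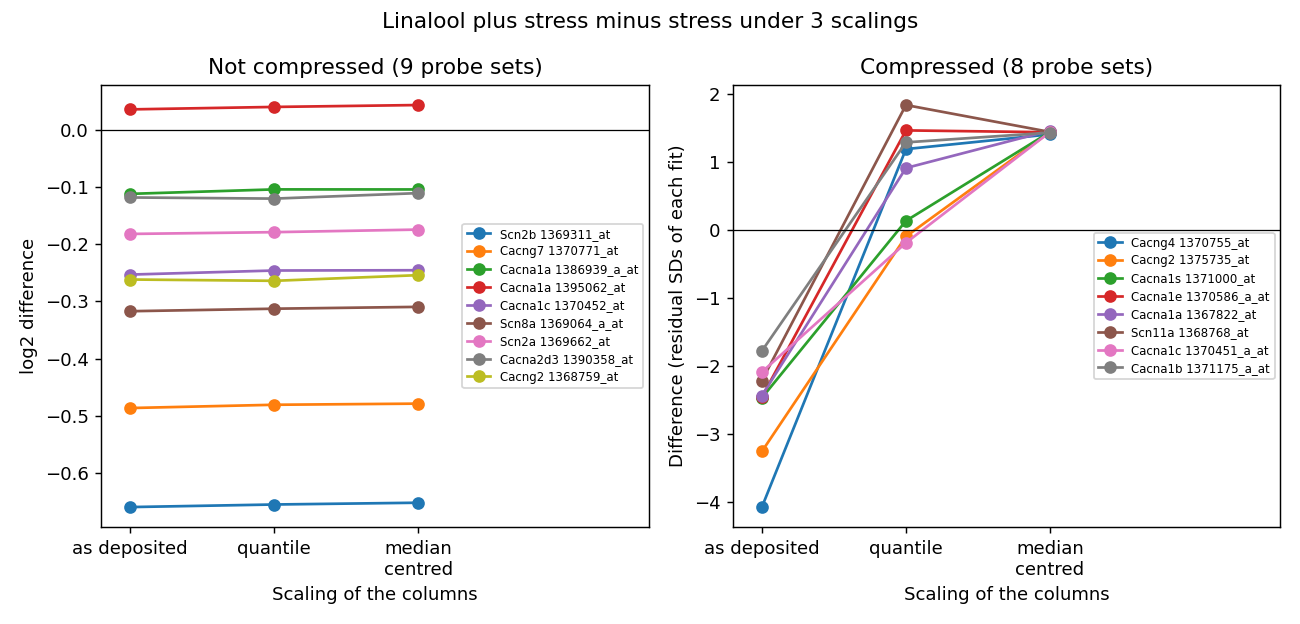
Difference between linalool plus stress and stress for the 17 channel probe sets that passed, as deposited, after quantile normalization and after median centring. On the left the 9 probe sets that were not compressed (log2 difference) stay on their side of 0, and on the right the 8 compressed ones (residual SDs of each fit) move from below 0 to between 1.41 and 1.46 under median centring.

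Other measures moved with the same arrays. Of 45 control probe sets for bacterial or phage RNA, which rats do not make, 15 were higher and 4 lower in linalool plus stress arrays, with log2 differences of -0.19 to 0.34 (adjusted over the 57 array controls). All 15 higher calls were of dap, lys, phe or thr probe sets, and all 4 lower calls were of bioD or cre probe sets. Most of these calls were compressed, with differences such as 0.00045 for LysX-3. The higher calls that were not compressed were DapX-3 (0.18), dap-3 (0.23), phe-3 (0.34) and thr-3 (0.16). The lower ones that were not compressed were BioDn-5 (-0.15) and bioD-3 (-0.19). In size, the differences of Scn2b and Cacng7 were above 0.34 and those of the other 7 called probe sets that were not compressed were not. Of the 12 controls for rat genes and others, 2 were higher and 6 lower. Their differences ran from -0.39 (5S ribosomal RNA) to 0.20 (the 5′ probe set of beta-actin). The first principal component of all probe sets held 47% of the variance and separated every linalool plus stress array (124 to 184) from every stress array (-179 to -114). Array handling and the odour cannot be told apart in these data.

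Neuronal and regional markers were counted beside the channels, since neurons are a main source of channel RNA. Of 12 neuron marker genes, 4 were lower with linalool (Syt1, Syn1, Rbfox3 and Map2) and none was higher. These were 4 of 19 probe sets (21.1%), with a median of -0.904 residual SDs. Among all probe sets 10.8% were lower, and among those not compressed 21.3%. Of the 19 neuron marker probe sets 9 were compressed, against 83.7% of all, so the 10.8% is not a like background. Their summed linear signal lay between 61430 and 67320 in linalool plus stress arrays and between 65090 and 66780 in stress arrays, so the sums overlapped. Their mean deviation in residual SDs lay between -1.28 and 0.295 in linalool plus stress arrays and between 0.124 and 0.785 in stress arrays. By that measure only linalool array 6 (0.295) lay above the lowest stress array. Of 14 thalamus markers measured, Rora, Ntng1 and Gbx2 were lower and none was higher. These were 3 of 27 probe sets (11.1%, against 10.8% of all), but only 6 of the 27 were compressed. Sums were 17930 to 24670 in linalool plus stress arrays and 19350 to 33690 in stress arrays. Of 14 hypothalamus markers measured, Hdc was higher and none was lower. This was 1 of 15 probe sets (6.67%, against 14.2% of all), and 7 of the 15 were compressed. Sums were 15450 to 23510 in linalool plus stress arrays and 11840 to 17990 in stress arrays. Median differences were -1.33 residual SDs over the thalamus probe sets and 0.589 over the hypothalamus probe sets, against -0.0136 over all probe sets. In the glial lists 20% of 15 astrocyte, 14.3% of 14 oligodendrocyte, 16.7% of 6 oligodendrocyte precursor and 0% of 10 microglia probe sets were lower. Higher shares were 13.3%, 7.14%, 0% and 20%, and 7, 4, 5 and 7 probe sets were compressed, in that order. The part of the neuronal, glial and regional markers in the channel results was not tested.

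Genes whose products bind, anchor or act downstream of these channels were counted from a list of channel partners, of which 46 of 49 genes were measured in 92 probe sets. With linalool, 29 of the 92 probe sets were lower (17 genes, 31.5%, against 10.8% of all probe sets) and 2 were higher (2.17%, against 14.2%), with a median of -1.14 residual SDs. Of the 40 that were not compressed 22 passed (55%, near the 49.7% of all such probe sets), 20 lower (50%, against 21.3%) and 2 higher, and all 22 kept their direction under quantile normalization and median centring. The other 9 calls were compressed, and 8 of them turned upward under each of those scalings. As for the channels, the array medians largely fixed the outcome of centring by the size of a difference. The centring counts therefore carry no weight here. Calm2, a calmodulin gene, was higher by 0.29 (limma adjusted p = 3.42e-05). Camk2b, a calcium and calmodulin kinase subunit, was lower (difference -0.47, adjusted p = 0.000662) at 10.52 ± 0.123 with linalool plus stress and 10.99 ± 0.098 with stress (SD, n = 6 each). Unc80, a subunit of the sodium leak channel complex, and Ank2, an ankyrin that anchors channels and exchangers, differed by -0.52 and -0.51 (adjusted p = 0.000893 and 0.00092). Ncs1, a neuronal calcium sensor, had 3 called probe sets that disagreed. The compressed 1380492_at was lower (-5.84 residual SDs, adjusted p = 0.000151) and stayed lower under quantile normalization (-4.85) and median centring (-3.67). The compressed 1387685_at was lower as deposited (-2.82) and turned to 0.0489 and 1.43. The third, 1396382_at, was higher by 0.13 (adjusted p = 0.0349) and no longer passed under quantile normalization (adjusted p = 0.0561).

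Restraint alone against control gave no channel call. None of the 52 channel probe sets passed in limma (0.554% of all probe sets did), so a count of 0 is near that background. At an unadjusted p under 0.05 there were 3, all higher after stress, where 16% of all probe sets reached that level. An exact rank-sum test called 0 of all 31042 probe sets here, its smallest possible p being 0.00216, so its 0 channel calls (2 at an unadjusted p under 0.05) say nothing about the limma count. In no channel probe set were the groups apart, against 1.78% of all probe sets. The median difference was 0.49 residual SDs over the 52 and 0.12 over all probe sets. Over the 19 neuron marker probe sets, none of which passed, it was 0.705. The mean deviation of those markers in residual SDs lay between -0.0767 and 0.553 in stress arrays, 5 of 6 above every control, and between -0.487 and -0.0164 in control arrays. Their part in the channel shift was not tested. Leaving out controls 4, 5 and 6 together, or control 1 alone, gave 0 calls as well. On the first principal component control 5 scored -202, control 6 -124, control 1 -77 and control 4 -70.1, where stress arrays scored 49.9 to 127. Summed meninges and fibroblast markers lay between 8136 and 9989 in stress arrays and between 7743 and 31100 in control arrays.

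The smallest p belonged to Cacna1e, compressed at 7.47 in both groups. Its stress arrays lay 0.443, 1.82 and 2.68 residual SDs from the control mean (lowest, median, highest), against -1.44, -0.0286 and 1.56 for control arrays. The groups overlapped, and it differed by 1.66 residual SDs (95% interval 0.374 to 2.95, adjusted p = 0.215). Cacng2 1368759_at read 10.13, 10.18 and 10.30 (lowest, median, highest) in stress arrays, against 9.91, 10.03 and 10.20 in control arrays. The groups overlapped, and the difference was 0.15 (SE 0.0597, limma adjusted p = 0.26). Cacng1 was compressed, with stress arrays at -0.333, 1.11 and 3.55 residual SDs from the control mean, against -0.944, 0 and 0.666 for control arrays. Of its stress arrays 5 of 6 lay above every control array, and it differed by 1.42 residual SDs (adjusted p = 0.263). Scn2b 1369311_at read 8.36, 8.40 and 8.57 in stress arrays, against 8.33, 8.59 and 8.69 in control arrays. The stress arrays lay inside the range of the controls, and the difference was -0.13 (SE 0.0626, limma adjusted p = 0.324). Cacna1c 1370451_a_at had stress arrays at 0.139, 1.05 and 3.02 residual SDs from the control mean, against -0.981, -0.421 and 1.77 for control arrays. Scn10a had stress arrays at 0.132, 1.32 and 2.36, against -2.09, 0.291 and 1.09 for control arrays. Both overlapped between groups and differed by 1.21 residual SDs (adjusted p = 0.328 and 0.329).

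Over all 52 probe sets the differences after restraint lay between -1.22 and 1.66 residual SDs, with adjusted p-values of 0.215 to 0.986. For the sodium pores of brain the intervals held 0. Scn1a averaged 10.91 in stress arrays and 10.81 in control arrays (difference 0.11, 95% interval -0.11 to 0.33). Scn2a averaged 10.52 in stress arrays and 10.48 in control arrays (0.04, interval -0.08 to 0.16). Scn3a averaged 9.67 in stress arrays and 9.71 in control arrays (-0.04, interval -0.25 to 0.18). Scn8a was compressed at 7.78 in both groups and differed by 0.03 residual SDs. Scn9a averaged 8.44 in stress arrays and 8.28 in control arrays (0.16, interval -0.11 to 0.43).

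Calcium pores after restraint were compressed in 18 of 20 probe sets. Cacna1c 1370452_at averaged 8.59 in stress arrays and 8.57 in control arrays (0.02, 95% interval -0.12 to 0.16), and Cacna1h 1368398_at averaged 8.914 in stress arrays and 9.002 in control arrays (-0.09, interval -0.32 to 0.15). The 5 Cacna1a probe sets, all compressed in this set, averaged 7.46, 8.49, 7.61, 8.22 and 8.32 in both groups. They differed by -1.09, 0.991, 0.772, 0.553 and 0.507 residual SDs for 1367822_at, 1367821_a_at, 1395062_at, 1398459_at and 1386939_a_at. Cacna1b averaged 7.95 and 9.87 in both groups by 1371175_a_at and 1370444_at, with differences of 1.20 and 0.753 residual SDs. Cacna1d averaged 8.55, 6.95 and 7.89 in both groups by 1369086_a_at, 1370637_at and 1370640_a_at, with differences of -0.93, 0.721 and -0.0534 residual SDs. Among T-type pores Cacna1g averaged 8.88 in both groups (0.483 residual SDs), and the compressed Cacna1h probe set 1379197_at averaged 7.51 (0.471). Cacna1i averaged 7.90 and 7.51 in both groups by 1369211_at and 1370641_s_at (0.152 and -0.143).

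The widest log2 intervals after restraint belonged to sodium beta subunits. Scn4b differed by 0.26 (95% interval -0.14 to 0.66), and Scn3b 1370850_at averaged 10.37 in stress arrays and 10.18 in control arrays (0.19, interval -0.24 to 0.61). Scn3b 1383435_at averaged 10.67 in stress arrays and 10.72 in control arrays (-0.05). Cacna2d1 averaged 10.25 in stress arrays and 10.37 in control arrays (-0.12, interval -0.25 to 0.01, adjusted p = 0.33). Cacnb4 averaged 7.61 in stress arrays and 7.68 in control arrays (-0.07). The compressed probe sets Scn2b 1396405_at and Cacng2 1375735_at averaged 10.40 and 9.48 in both groups, with differences of 0.681 and 0.9 residual SDs. Of the 92 probe sets of channel partner genes none passed either, with a median of -0.0267 residual SDs.

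**Figure D5:**
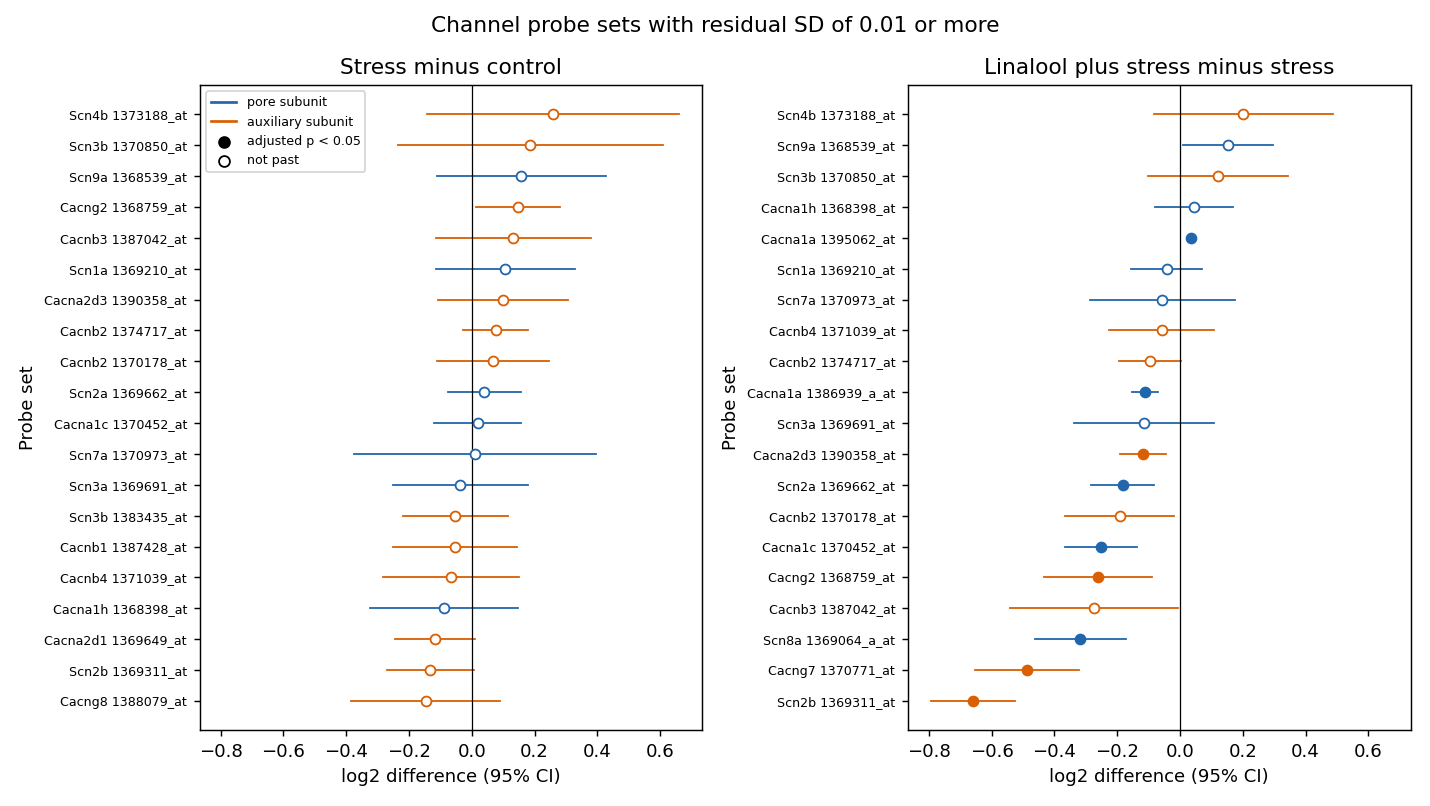
log2 difference with its 95% interval (horizontal axis) for the channel probe sets that were not compressed, 20 in each comparison, stress minus control on the left and linalool plus stress minus stress on the right. Blue marks pore and orange marks auxiliary subunits, and filled points passed an adjusted p of 0.05. All points on the left are open, and Scn2b at -0.66 is the lowest on the right.

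The stress rats enter both comparisons, so their values for a gene are not independent between them. Scn2b 1369311_at differed by -0.66 with linalool plus stress against stress and by -0.13 with stress against control. Cacng2 1368759_at differed by -0.26 and 0.15 in the same order, and Scn2a by -0.18 and 0.04. For Scn8a, Cacng7 and the called Cacna1a probe sets 1386939_a_at and 1395062_at no log2 size can be compared, since they were compressed in the set with controls.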

How the data were processed

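Total RNA of 18 hypothalamic blocks was labelled from 500 ng for a 3' expression array, per the labels' protocols. The deposited values are log2 signals per probe set, normalized by the authors in 2 sets per the series design text; a log2 scale is taken from the range of values, and the summarization and normalization methods and any centring are not given in the sources used here. All value columns were used. A value table gives neither spot background nor scan date, so background correction and slide blocks were not tried, and how far a signal lies above background is unknown. The number of arrays limits the precision.

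Each comparison was fitted in limma 3.58.1 (R 4.3.3, moderated two-sided test without a filter) on 31042 probe sets, leaving out 57 array controls, with Benjamini-Hochberg adjustment and a threshold of 0.05. The fit was tested on simulated data. Intervals are 95% intervals from each probe set's own residual SD. Symbols come from the platform table and were checked by gene identifier (52 of 52 matched, 0 changed). Each array is another rat per the labels, and p-values rest on the spread between arrays in the deposited values. For compressed probe sets that spread was tiny. For some channel probe sets the spread over the same rats depended on the set they were normalized in, so it is not the spread between rats alone. The members, the lists and the definition of compressed probe sets were chosen with earlier results of these data known.

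Array-level values are given for up to 12 probe sets past the threshold in order of p, and for the 6 smallest p-values where fewer than 6 passed; compressed ones are given as deviations in residual SDs, since their arrays differ only in distant decimals. Fixed brain pore and auxiliary subunits are always given by group means, and others by range. From the partner list, up to 5 of the smallest p-values are named. Alternatives were 1 probe set per gene, quantile normalization, median centring, leaving out probe sets below the median, an intensity trend, an unmoderated test, an exact rank-sum test, a replicate block and leaving out arrays.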

Additional observations from a re-analysis of the deposited data

Results flagged for a closer look

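Among 46 groups of 6 arrays behind the 23 named results, 3 held an array whose gap to the nearest other array, divided by the group's range, was above Dixon's 95% critical value, and chance flags about 1 in 20 groups. Linalool plus stress array 2 was the lowest for Cacna2d3, at 9.99 where the next array read 10.10 (ratio 0.645). Without it the difference was -0.10 and still passed (adjusted p = 0.0307), while the exact rank-sum test on all 12 arrays did not call it (adjusted p = 0.0615). Stress array 6 was the highest for Scn2b 1369311_at in both sets, at 8.66 where the next read 8.47 in the set with linalool arrays (ratio 0.628), and at 8.57 where the next read 8.41 in the set with controls (ratio 0.728). Both values come from the same array. Without stress array 6 the Scn2b difference with linalool stayed past the threshold.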

How the results depend on the processing

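For stress against control the count of channel probe sets past the threshold was 0 under every alternative run, the replicate block and each left-out array included; the exact rank-sum test, which called no probe set at all there, bears no weight in this. For linalool plus stress against stress the 17 became 10 with 1 probe set per gene, 9 with quantile normalization (1 higher, 8 lower), 44 with median centring (34 higher, 10 lower) and 7 with probe sets below the median left out, and 15 to 20 without 1 array. Pore probe sets (11) became 6, 5, 25 and 3 under those same 4 settings, and auxiliary ones (6) became 19 with median centring. Compressed ones (8) became 4, 0, 32 and 1. The 22 called partner probe sets that were not compressed became 11 with 1 probe set per gene. Fewer probe sets are tested with 1 per gene or with the low ones left out. Under median centring the array medians fixed the turn of the compressed calls in advance, and most of all probe sets were called, as given above. The cause of the other changes was not tested. The 9 channel calls that were not compressed ranged from 6 to 12. Counts in this section are given without the share over all probe sets in the same setting. They describe how the calls depend on processing and show no trait of the channels.

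Under median centring Cacng4, Cacng2 1375735_at, Cacna1s, Cacna1e, Cacna1a 1367822_at, Scn11a, Cacna1c 1370451_a_at and Cacna1b 1371175_a_at reversed, at 1.41, 1.44, 1.44, 1.44, 1.46, 1.44, 1.44 and 1.43 residual SDs in that order. Under quantile normalization Cacna1a 1367822_at (0.911), Cacna1b 1371175_a_at (1.29), Cacna1e (1.46), Cacna1s (0.134), Cacng4 (1.19) and Scn11a (1.84) reversed. The exact rank-sum test and the replicate block each called 15 channel probe sets with linalool. The block kept 14 of the 17 and called 1 higher and 14 lower; it lost Cacng2 1368759_at, Cacna1b 1371175_a_at and Cacna1e (adjusted p = 0.0984, 0.104 and 0.0721). Same-numbered arrays shared only a number: their deviations correlated at 0.0755 to 0.223 (stress and control) and -0.105 to 0.182 (linalool plus stress and stress).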
